A study of Homo sapiens with 6 samples.

Results

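Ribosome biogenesis and nucleolar genes were followed in 6 RNA sequencing libraries of U937 cells. The 32 members are given by a list of symbols, and each was matched to 1 Ensembl identifier among the 60612 of the deposited table. All 32 passed the filter on low counts, which left 17224 genes. By role they comprised 5 genes of RNA polymerase I transcription, 8 protein genes of small nucleolar ribonucleoproteins (snoRNPs) and their chaperone, 6 genes of small subunit assembly, 7 genes of large subunit assembly and 6 genes of nucleolar proteins with several roles. U937 is an established human myeloid line derived from a histiocytic lymphoma. The labels give its cell type as acute myeloid leukemia and its genotype as wild type. Both groups were kept in RPMI-1640 medium without serum after growth with it. In one group of 3 libraries cells were exposed to B2, a compound given by that code alone, at 1 µM for 36 h, and in the other group of 3 to its DMSO vehicle for the same time. Replicate numbers 1 to 3 occur in both groups. Whether the libraries stem from separate cultures is not stated in the labels. The p-values thus reflect variation among these 6 libraries, part of which may be technical. A single line was used, so the values describe U937 alone.

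Ribosomes are assembled in the nucleolus, around the precursor of ribosomal RNA (rRNA) that RNA polymerase I transcribes. snoRNPs guide methylation and pseudouridylation of that precursor, while assembly factors fold and cleave it and load ribosomal proteins in a small subunit and a large subunit pathway. In leukemic blasts and other dividing cells these genes are expressed together with growth, and many are known targets of the transcription factor MYC.

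Library totals ran from 61150740 to 78431054 counts. Values are library-normalised counts (CPM) after scaling with TMM factors, which correct for composition. CPM is a share of the library, so fewer cells expressing a gene and less RNA of it per cell cannot be told apart. Of 20 myeloid lineage markers, 0 were at 0 in any library. Granule protease genes were high (ELANE 625 to 1307 CPM), whereas MPO, the myeloperoxidase gene of granulocyte precursors, read 0.281 to 1.67 CPM. T cell markers summed to at most 5.17 CPM, fibroblast markers to at most 12.2 CPM and B cell markers to at most 28.4 CPM. Epithelial markers (13 genes) summed to 46.7 to 61.8 CPM with B2 and 10.1 to 44.97 CPM with DMSO, and their part in any difference between the groups was not tested. The libraries numbered 3 stood apart in both groups: the summed level of 16 macrophage markers was 2616 CPM (B2) and 2819 CPM (DMSO) there, and 420 to 792 CPM in the 4 remaining libraries.

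Promoters are shown first, because one hexamer recurs near the start sites of the members. CACGTG is the E-box that MYC and MAX, among other factors, can bind. RefSeq windows of 300 bases (GRCh38.p14), 250 before and 50 from the annotated start, were matched to 27 of the 32 members. Those not matched were NOP58, NOLC1, RRP12, RRS1 and BOP1. CACGTG, which reads the same on both strands, occurred in windows of 14 of the 27 members (51.9%). The share was 12.4% among genes that passed the filter and had a window, and 8.77% among all 27305 genes with a window. It was 26.6% (34 of 128) for other ribosome assembly genes and 6.35% (4 of 63) for cytosolic ribosomal protein genes. The members holding it were FBL, GAR1, NOP10, NOP14, RRP9, WDR43, UTP20, BYSL, NOP2, PES1, GNL3, DDX21, LYAR and MYBBP1A. Of 15 matches, 13 began within 50 bases of the start. By comparison, the GC box GGGCGG (either strand) occurred in 74.1% of the members and 74.7% of filtered genes with a window, and CACGCG (either strand) in 33.3% and 21.8%. These are letter matches in a window, and the data hold no measure of binding. Stretches of 120 bases, 90 before and 30 from the start, are printed 5′ to 3′ on the gene's strand, with CACGTG in capitals. Of the 6 members with the smallest p for B2, WDR43, GNL3, UTP20 and BYSL have it, while NPM1 and PPAN have no match. The match of BYSL runs past the printed stretch. A link between the hexamer and B2 was not tested. FBL and NOP10 have it and lay on opposite sides of their other values in the libraries numbered 3. NCL has no match. The stretches printed are those of WDR43, GNL3, UTP20, FBL, NOP10 and NCL. They lie at chr2:28894577-28894696 (plus strand, WDR43), chr3:52685942-52686061 (plus, GNL3), chr12:101280015-101280134 (plus, UTP20), chr19:39846350-39846469 (minus, FBL), chr15:34343107-34343226 (minus, NOP10) and chr2:231464455-231464574 (minus, NCL).
WDR43: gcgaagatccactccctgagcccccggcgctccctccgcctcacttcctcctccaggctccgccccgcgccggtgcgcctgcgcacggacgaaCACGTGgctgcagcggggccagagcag
GNL3: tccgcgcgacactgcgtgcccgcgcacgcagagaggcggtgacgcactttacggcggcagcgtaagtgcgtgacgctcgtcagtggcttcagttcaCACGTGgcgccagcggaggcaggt
UTP20: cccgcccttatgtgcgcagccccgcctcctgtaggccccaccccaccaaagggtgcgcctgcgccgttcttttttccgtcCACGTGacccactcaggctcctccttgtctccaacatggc
FBL: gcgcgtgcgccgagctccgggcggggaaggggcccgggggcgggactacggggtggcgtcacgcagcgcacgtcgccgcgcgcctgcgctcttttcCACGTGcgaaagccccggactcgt
NOP10: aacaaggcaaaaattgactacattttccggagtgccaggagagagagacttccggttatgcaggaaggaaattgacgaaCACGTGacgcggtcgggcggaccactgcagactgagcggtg
NCL: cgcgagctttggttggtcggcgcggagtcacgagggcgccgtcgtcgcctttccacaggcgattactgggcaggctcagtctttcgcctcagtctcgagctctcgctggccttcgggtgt

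No member passed the test between B2 and DMSO. In edgeR's quasi-likelihood test over all 17224 genes, 0 of the 32 members and 0% of all genes had an adjusted p below 0.05, and the members' adjusted p was 1.0 throughout. At an unadjusted p below 0.05 there were 0 members, against 0.493% of all genes. The members' median log2 fold change (B2 over DMSO) was -0.18, with 8 positive and 24 negative estimates from -0.75 (UTP20) to 0.30 (DKC1). All tested genes had a median of -0.08, with 6535 positive and 10689 negative. The members' median was 0.015, with 17 positive, without DMSO replicate 1, and -0.33, with 3 positive, without DMSO replicate 3. It was -0.07 when B2 replicate 3 was left out and -0.08 when DMSO replicate 2 was, with 14 positive each. The groups overlapped for each of the 32 members. B2 and DMSO values did not overlap for 3.56% of all genes, a share near that of the members and so no result about them. For 17 of 32 members (53.1%, against 36.6% of all genes) the 95% interval of this fit lay within a 2-fold change either way. For the others this fit does not limit the change to that size. With the replicate number as a block the median was -0.12, again with 0 members called. In that fit the interval lay within a 2-fold change for 27 members (84.4%, against 58.2% of all genes). With the GC and length trend removed as well, it did for 31 (96.9%, against 62.6%). Between same-numbered libraries the direction was the same 3 times for 5 members (15.6%), near the 15.9% of all genes. Those 5, NPM1, GNL3, PPAN, NOP58 and DDX21, were lower with B2 each time. Some gaps were slight, with log2 differences of -0.010 for NPM1 in number 3, -0.015 for DDX21 in number 1 and -0.016 for PPAN in number 2.

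**Figure D1:**
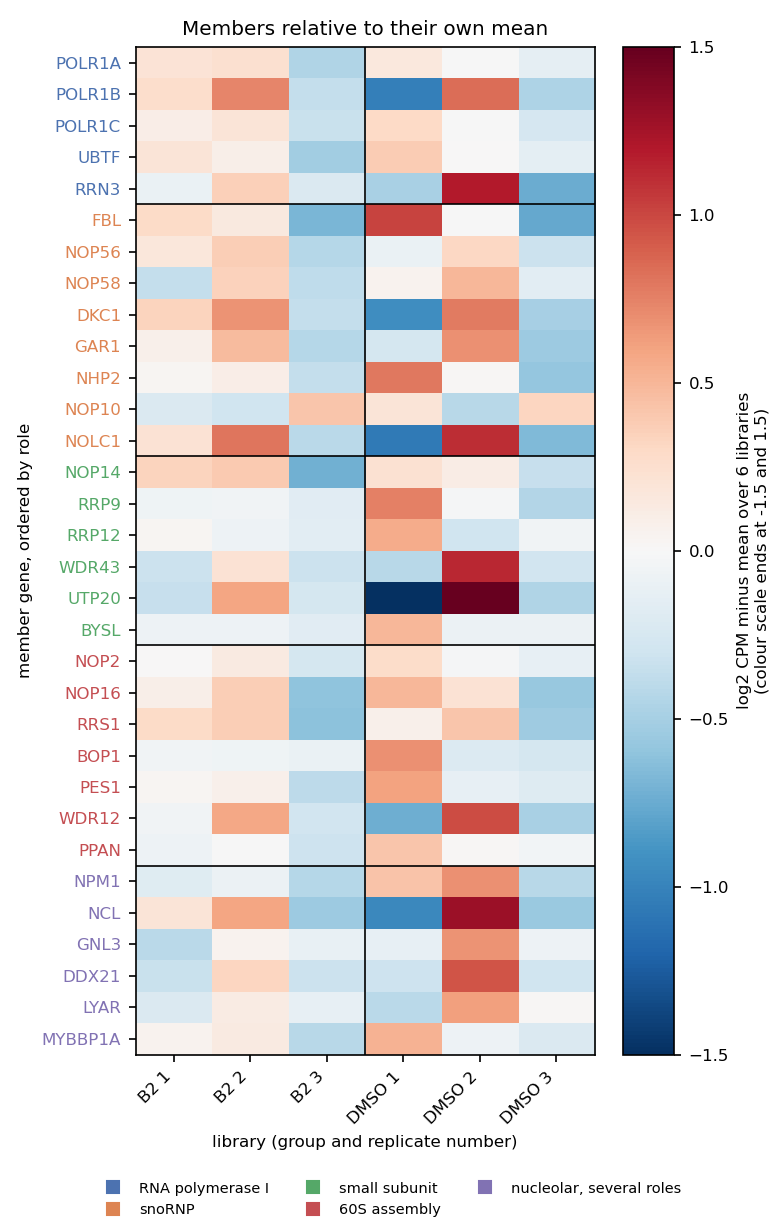
Each row is a member gene and each column a library; colour gives log2 CPM minus the gene's mean over the 6 libraries (red higher, blue lower), with lines between role groups and between treatments. The columns B2 3 and DMSO 3 are blue in nearly every row, while DMSO 1 and DMSO 2 hold the strongest colours of both kinds.

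Among the multifunctional nucleolar proteins, 6 of 6 estimates were negative, with a median of -0.26. NPM1 (nucleophosmin, an abundant histone and ribosomal protein chaperone; chromosome 5, 171387116 to 171411137) had the smallest p of the members. It read 374, 399 and 316 CPM under B2 against 569.7, 681 and 318 CPM under DMSO (replicates 1, 2 and 3, in this order here and below). DMSO replicates 1 and 2 were thus above the B2 libraries, and DMSO replicate 3 lay beside B2 replicate 3. The means were 363 ± 42.8 CPM for B2 and 523 ± 186 CPM for DMSO (SD, n = 3 each). The log2 fold change was -0.53 (SE 0.33, 95% interval -1.28 to 0.22, edgeR adjusted p = 1.0). Leaving out 1 library gave -0.79 (without DMSO replicate 3) to -0.33 (without DMSO replicate 2). The 49 annotated NPM1 pseudogenes summed to 6.31 to 12.8 CPM. GNL3 (nucleostemin, a nucleolar GTP-binding protein; chromosome 3, 52681156 to 52694492) read 27.9, 38.2 and 34.1 CPM under B2 against 33.8, 58.8 and 35.2 CPM with DMSO. Its estimate of -0.35 (SE 0.31) was -0.08 without DMSO replicate 2, the one library that stood above the rest. NCL, DDX21, LYAR and MYBBP1A had estimates from -0.31 to -0.12, of which NCL is described below with the replicate numbers.

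Among the small subunit genes, 5 of 6 estimates were negative (median -0.26). WDR43, a subunit of the complex that couples rRNA transcription to its processing (chromosome 2, 28894643 to 28948222), read 17.8, 25.8 and 17.9 CPM under B2 against 16.7, 48.9 and 18.2 CPM with DMSO. DMSO replicate 2 alone was far above the others. Its estimate of -0.45 (SE 0.45) became 0.20 without that library. UTP20, a large scaffold protein of early small subunit assembly (chromosome 12, 101280109 to 101386616), read 2.14, 4.11 and 2.26 CPM under B2 against 0.896, 11.5 and 1.997 CPM with DMSO. It thus had both its lowest and its highest value within the DMSO group, a ratio of 12.8 between them, from 50 and 889 counts. The estimate of -0.75 (SE 0.83) was 0.94 without DMSO replicate 2 and -1.22 without DMSO replicate 1. BYSL (bystin, needed for late maturation of the small subunit; chromosome 6, 41921188 to 41933046) read 27.7, 27.5 and 25.97 CPM under B2 against 41.3, 27.4 and 27.3 CPM with DMSO. All its libraries other than DMSO replicate 1 lay between 25.97 and 27.7 CPM, and the estimate of -0.24 (SE 0.28) was -0.01 without that library. RRP9 (-0.28) and RRP12 (-0.18) were likewise highest in DMSO replicate 1, with estimates of 0.14 and 0.11 once it was left out. NOP14, an early assembly factor, had the 1 positive estimate of the group, 0.06.

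Among the large subunit genes, 6 of 7 estimates were negative (median -0.11), and their range was narrow, from -0.26 to 0.04. PPAN, the SSF1 homolog of pre-rRNA processing (chromosome 19, 10106289 to 10111634), read 39.9, 41.8 and 33.8 CPM under B2 against 55.7, 42.3 and 40.7 CPM with DMSO, a log2 fold change of -0.26 (SE 0.26). B2 replicate 2 lay above DMSO replicate 3, so the groups overlapped. PPAN shares exons with the read-through gene PPAN-P2RY11 and with P2RY11, and its value is uncertain. PPAN-P2RY11 read 18.41, 18.65 and 8.12 CPM under B2 against 17.52, 9.71 and 0 CPM with DMSO, so the direction for PPAN is uncertain too. BOP1 and PES1, partners of WDR12 in the PeBoW complex that processes large subunit rRNA, had estimates of -0.21 and -0.22, while WDR12 stood at 0.00. BOP1 and PES1 were highest in DMSO replicate 1 and turned to 0.17 and 0.09 without it. The rRNA methyltransferase NOP2 (-0.08), NOP16 (-0.11) and RRS1 (0.04), a factor that helps load the 5S particle, were close to 0.

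The snoRNP genes were divided, with 4 positive and 4 negative estimates and a median of -0.02. FBL, NOP56 and NOP58 belong to the box C/D particles that methylate rRNA, FBL (fibrillarin) being the methyltransferase, and they had estimates of -0.29, 0.09 and -0.25. DKC1, GAR1, NHP2 and NOP10 form the box H/ACA particles that pseudouridylate rRNA, DKC1 (dyskerin) being the catalytic subunit. DKC1 had the highest estimate of any member, 0.30 (SE 0.47, 95% interval -0.78 to 1.39), which was 0.01 without DMSO replicate 1 and 0.94 without DMSO replicate 2. GAR1, NHP2 and NOP10 had estimates of 0.03, -0.25 and -0.06. The RNA polymerase I genes had a median of -0.03: the 2 largest subunits POLR1A and POLR1B stood at 0.02 and 0.27, POLR1C, which is shared with RNA polymerase III, at -0.03, the rDNA-binding factor UBTF at -0.15 and the initiation factor RRN3 (TIF-IA) at -0.22. Of the 32 members of all roles, 26 changed the sign of their estimate when a single library was left out.

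**Figure D2:**
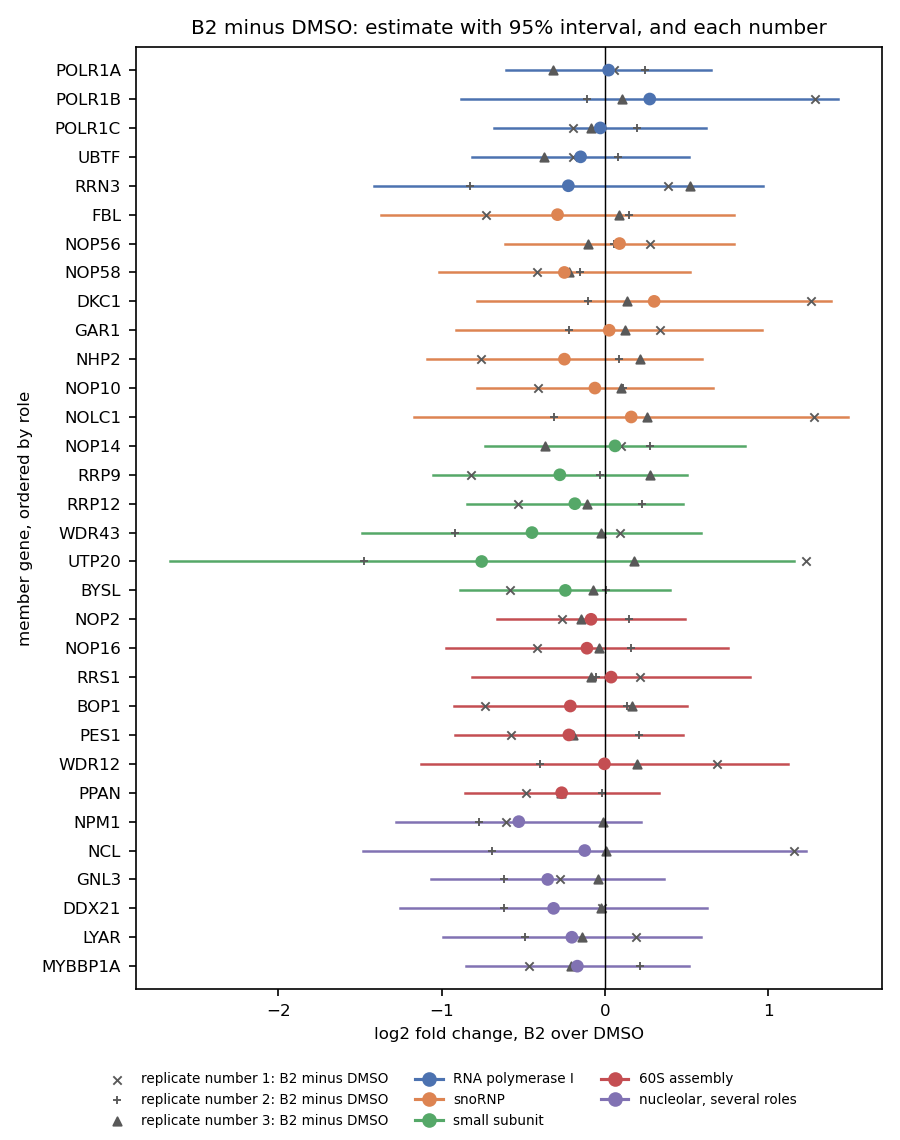
The x axis is the log2 fold change of B2 over DMSO for each member; coloured points with bars are the fitted estimate with its 95% interval, and grey marks the difference within each replicate number. Every interval crosses 0, and the grey marks of number 1 and number 2 often fall on opposite sides, as for UTP20, NCL and BOP1.

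Replicate numbers were compared next. Of all tested genes, 2.68% passed the edgeR F test across numbers (treatment as covariate). Of the 32 members 0 did, which is near that share and so no result about the members. The smallest member adjusted p was 0.0664 (NOLC1). The count of 0 depended on the setting, and the share of all genes called moved with it. RLE factors gave 3 members (5.55% of all genes), stricter filtering of low counts 8 of 31 (18.2%), counts divided by 4 gave 8 (17.1%), DESeq2 8 (11.8%) and limma-voom 6 (7.42%). Library totals, no filter and removal of the GC and length trend each left it at 0 (1.54%, 1.48% and 2.77% of all genes). Per library, the members' median deviation from their own means was 0.03, 0.20 and -0.36 in B2 replicates 1 to 3 and 0.17, 0.26 and -0.31 in the DMSO replicates on the log2 scale. Both libraries numbered 3 were the low ones. Their members summed to 2137 and 2184 CPM, against 2935 to 3824 CPM in the other 4. In B2 replicate 3, 1 of 32 members lay above its own mean, and in DMSO replicate 3, 2 did.

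Number 3 was lower than the mean of numbers 1 and 2 for 31 of 32 members, with a median log2 difference of -0.49, against -0.05 for all genes. No single member passed the edgeR test at an adjusted p below 0.05 (0 of 32, a share near the 3.34% of all genes). At an unadjusted p below 0.05, 10 members were lower, a rule that 6.14% of all genes met. For 16 members (50%) both libraries numbered 3 lay below the other 4, which held for 12.1% of all genes. The direction was the same under TMM, RLE and library-total scaling for each member. The macrophage markers moved with this difference. Of the 16, 12 passed the filter on low counts, of which 9 were higher in number 3 at an edgeR adjusted p below 0.05, 11 had positive and 1 a negative difference. MRC1 was at 0 in every library, and MSR1 and C1QB read at most 0.0902 CPM. APOE, by contrast, was lower there, at 0.858 and 0.438 CPM against 0.915 to 2.32 CPM elsewhere. SIGLEC1, a sialic acid receptor of macrophages, read 478 CPM (B2) and 519 CPM (DMSO) in the libraries numbered 3 and 2.79 to 3.78 CPM elsewhere, and CD14 read 121 and 109.6 CPM, against 0.361 to 1.29 CPM. Of the 16 macrophage markers 2 were at 0 in each library numbered 3 and 2 to 4 in the others. The part of these markers' source in the members' lower level was not tested.

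Of the 8 snoRNP genes, 7 had negative differences of number 3 and NOP10 a positive one, with a median of -0.69 over the 8 and 0 called. FBL (chromosome 19, 39834458 to 39846414) read 346, 313 and 176 CPM under B2 against 573, 282 and 166 CPM with DMSO. Number 3 was lowest in each group, and DMSO replicate 1 was highest of all. The difference of number 3 from the others was -1.10 (SE 0.29, edgeR adjusted p = 0.0653), the member nearest to the threshold, and it ran from -1.31 to -0.82 with 1 library left out. With the trend on GC content and transcript length removed, FBL was lower at -1.13 (edgeR adjusted p = 0.0224), beside NOP16 at -0.93 (adjusted p = 0.0314) and NOP14 at -0.79 (adjusted p = 0.0399). These 3 of 32 members passed in that setting, as did 1.35% of all genes as lower. NOP10, the small core protein of box H/ACA particles (chromosome 15, 34341713 to 34343177), went the other way. It read 109.9, 104 and 172 CPM under B2 against 146, 96.3 and 159.9 CPM with DMSO, and was the 1 member with both libraries numbered 3 above the other 4 (0.55, SE 0.25, edgeR adjusted p = 0.346). Its particle partners DKC1, GAR1 and NHP2 had differences of -0.67, -0.73 and -0.71.

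Per kilobase of exon, with all annotated exons of a gene merged, NOP10 had the highest value (237 CPM per kb, mean of 6 libraries), ahead of FBL at 142 and NPM1 at 116. Merged exons can be longer than a single transcript, so this order need not be that of abundance. NHP2 and NCL followed at 60.9 and 46.6 CPM per kb. The lowest were WDR12 at 2.86 and UTP20 at 0.38 CPM per kb.

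In the other roles the differences of number 3 were of like size. The RNA polymerase I genes had a median of -0.50, from -0.73 (RRN3) to -0.44 (POLR1A). The small subunit genes had a median of -0.47, led by NOP14 at -0.79, and the large subunit genes -0.45, led by NOP16 at -0.89 (SE 0.30, edgeR adjusted p = 0.165) and RRS1 at -0.86 (SE 0.29, edgeR adjusted p = 0.171). NOP16 read 31.98, 39.0 and 19.8 CPM under B2 against 42.7, 35.0 and 20.4 CPM with DMSO. RRS1 read 34.5, 36.3 and 18.4 CPM under B2 against 29.7, 37.7 and 19.5 CPM with DMSO. In both genes the libraries numbered 3 were well apart from the 4 others and close to each other. The multifunctional nucleolar genes had a median of -0.47, from -0.90 (NCL) to -0.09 (LYAR). GNL3, LYAR, RRP12, BOP1 and UTP20 changed sign in at least 1 alternative setting, and the other 27 did not.

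The remaining members are given by their ranges over the 6 libraries. POLR1A ran from 69.0 to 111 CPM and UBTF from 107 to 201 CPM, each with its lowest value in B2 replicate 3. POLR1C ran from 27.3 to 42.2 CPM and MYBBP1A, a partner of transcription factors in the nucleolus, from 50.3 to 96.2 CPM, also lowest there and highest in DMSO replicate 1. NHP2 covered 58.9 to 152 CPM and RRP9, a box C/D protein bound to U3, 26.8 to 61.3 CPM, both between DMSO replicate 3 and DMSO replicate 1. NOP56 was lowest at 139 CPM in B2 replicate 3 and highest at 243 CPM in B2 replicate 2. At lower levels, NOP58 ran from 14.02 to 25.8 CPM, GAR1 from 11.4 to 26.8 CPM and LYAR from 7.88 to 16.04 CPM, each highest in DMSO replicate 2. DDX21, an RNA helicase of the nucleolus, read 57.3 CPM in DMSO replicate 2 and 23.8 to 37.3 CPM in the other libraries. The 32 members reached their highest value in DMSO replicate 2 in 15 cases and in DMSO replicate 1 in 13, and their lowest in B2 replicate 3 in 14.

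**Figure D3:**
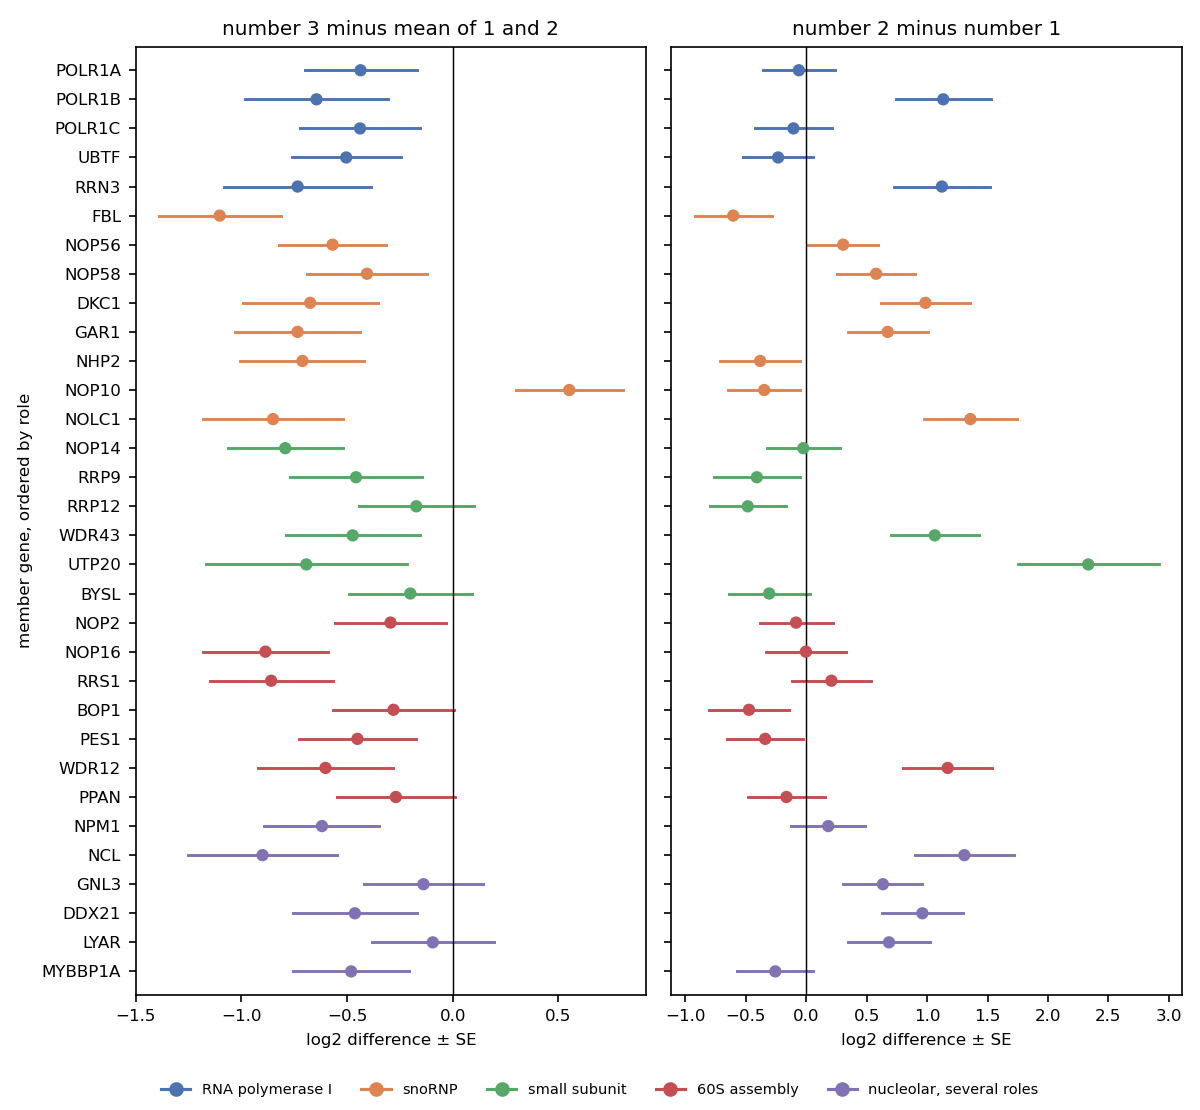
Points are log2 differences between replicate numbers for each member with bars of 1 SE, from the fit with treatment as covariate; the left panel compares number 3 with the mean of 1 and 2, the right panel number 2 with number 1. On the left, NOP10 is the 1 member right of 0; on the right, 16 members lie on each side, from FBL at -0.60 to UTP20 at 2.33.

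Between number 2 and number 1, 16 estimates were positive and 16 negative, with a median of 0.09 (all genes 0.16). With the GC and length trend removed this became 26 positive and 6 negative, with a median of 0.26 (all genes 0.14). No member passed the edgeR test at an adjusted p below 0.05 (0.0523% of all genes did, smallest member adjusted p = 0.175), and 9 members were higher in number 2 at an unadjusted p below 0.05, against 15.9% of all genes. Those 9 were POLR1B, RRN3, DKC1, NOLC1, WDR43, UTP20, WDR12, NCL and DDX21. Most of the gap lay within the DMSO group. NOLC1, a chaperone of snoRNPs (chromosome 10, 102152176 to 102163871), read 135, 203 and 88.0 CPM under B2 against 55.7, 251 and 73.6 CPM with DMSO. NCL, nucleolin, which binds nascent pre-rRNA (chromosome 2, 231453531 to 231483641), read 317, 421 and 190.1 CPM under B2 against 142, 679.5 and 189 CPM with DMSO. In both, DMSO replicate 1 was the lowest library, DMSO replicate 2 the highest, and the B2 libraries lay between them. Their log2 differences of number 2 from number 1 were 1.36 and 1.31, and their B2 estimates of 0.16 and -0.12 were 1.10 and 0.87 once DMSO replicate 2 was left out.

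WDR12 (chromosome 2, 202874782 to 203014798) had the same order, with 23.0, 35.5 and 19.5 CPM under B2 against 14.3, 46.8 and 17.0 CPM with DMSO. POLR1B (chromosome 2, 112541915 to 112577150) read 43.0, 59.8 and 28.1 CPM under B2 against 17.6, 64.4 and 26.1 CPM with DMSO. DKC1 (chromosome X, 154762742 to 154777689) read 134, 169.9 and 83.0 CPM under B2 against 56.0, 182 and 75.8 CPM with DMSO. All 3 were lowest in DMSO replicate 1 and highest in DMSO replicate 2. RRN3 (chromosome 16, 15060022 to 15094317) read 15.9, 21.9 and 14.7 CPM under B2 against 12.1, 38.8 and 10.2 CPM with DMSO. Here DMSO replicate 3 was the lowest. The 4 RRN3 pseudogenes summed to 11.5 to 27.8 CPM, against 10.2 to 38.8 CPM for RRN3 itself, so its reads may be split among copies and its values are uncertain.

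Which members stood higher in number 2 went with the GC content of their transcripts. Of the 16 members under 50% GC (40.22% to 48.39%), 14 were higher in number 2 than in number 1, with a median difference of 0.97. Of the 16 at or over 50% (50.87% to 65.22%), 2 were, with a median of -0.24. Over all genes the counts were 7151 of 8674 (median 0.63) and 2411 of 8341 (median -0.32). NOP10 and POLR1C were the 2 members under 50% that were lower in number 2. Over the 32 members, the log2 difference of DMSO replicate 2 from DMSO replicate 1 had a Pearson r of -0.727 and a Spearman rho of -0.771 with GC content. These points are genes from one pair of libraries, not replicates. Over 17015 genes the values were -0.489 and -0.572, so the relation is not particular to the members. Between B2 replicates 2 and 1 the members gave -0.749 and -0.791, but the differences were smaller, with an SD of 0.277 against 1.17 in the DMSO pair. The same split ran through the treatment comparison, in all genes as in the members. Under 50% GC, the members' median of B2 minus DMSO was 0.26 in number 1 and -0.44 in number 2 (all genes 0.35 and -0.33). At or over 50% it was -0.47 and 0.14 (all genes -0.26 and 0.16). In number 3 the members' medians were 0.05 and -0.11 (all genes 0.02 and -0.06). For the difference of number 3 from the others, the members' medians under 50% and at or over 50% were -0.61 and -0.47 (all genes -0.10 and 0.01). GC content and library cannot be told apart from other properties that these transcripts share.

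**Figure D4:**
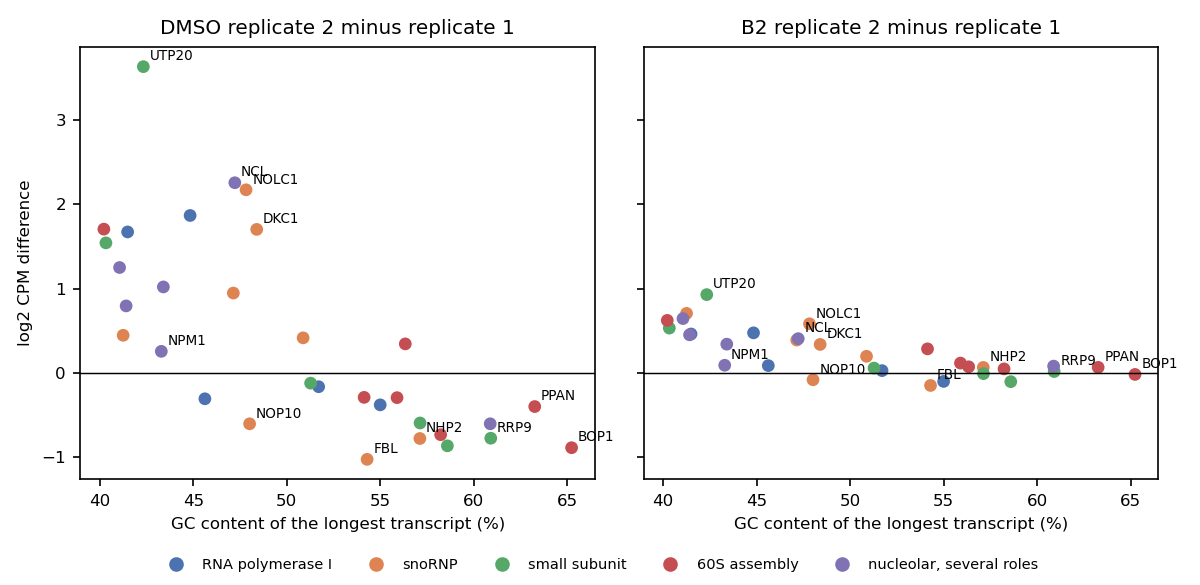
The x axis is the GC content of each member's longest transcript in percent and the y axis the log2 CPM difference between replicates 2 and 1, for DMSO (left) and B2 (right), 1 point per member coloured by role. In the DMSO pair, members under 50% GC lie mostly above 0 and those over 50% mostly below it, from UTP20 down to FBL; the B2 pair slopes the same way over a smaller range.

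Other genes of the pathway were taken from lists that had been written by role. Of 149 other genes for RNA polymerase I, snoRNP assembly, both subunits and the RNA exosome, 0 passed the B2 test; 43 estimates were positive and 106 negative, with a median of -0.15. Groups did not overlap for 7 of the 149, a share near the 3.56% of all genes in either direction and so no result about the list. All 7 were lower with B2: TAF1B, NOL11, NSA2, NOC3L, RPF1, RPF2 and RSL24D1. Over all 17224 genes, 280 were without overlap as lower and 334 as higher, and the difference in direction was not tested. RSL24D1, a placeholder protein on the early large subunit, read 60.4, 60.1 and 70.8 CPM under B2 against 101, 89.4 and 85.7 CPM with DMSO, a log2 fold change of -0.53 (SE 0.23, edgeR adjusted p = 1.0). NOC3L, another large subunit factor, read 4.24, 6.09 and 4.41 CPM under B2 against 6.97, 7.95 and 9.55 CPM with DMSO (-0.73, SE 0.32, edgeR adjusted p = 1.0). NOL11, of the complex to which WDR43 also belongs, had an estimate of -0.55 (SE 0.29). Each of these 3 kept a negative estimate in every alternative setting, from -0.93 to -0.33. As their groups did not overlap, leaving out libraries could hardly change that sign, so this adds no support.

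The 149 other genes were also lower in number 3, with 125 negative differences, a median of -0.29 and both libraries numbered 3 below the other 4 for 42 (28.2%). Of the 149, 1 passed the F test across numbers, against 2.68% of all genes, so this is no result about the list. It was the helicase gene DDX47 (edgeR adjusted p = 0.0394), with 11.7, 22.7 and 9.61 CPM under B2 against 8.94, 24.7 and 4.79 CPM with DMSO. It was lowest in number 3 in both groups, but its difference of number 3 did not pass (-1.18, edgeR adjusted p = 0.0844). That difference passed with the GC and length trend removed. The F test then called 0 of the 52 other small subunit genes, DDX47 among them (smallest edgeR adjusted p = 0.076). Of the 79 cytosolic ribosomal protein genes, 79 had a negative difference of number 3 (median -0.51), and 1 of 79 passed the threshold as lower, RPL5 at -1.26 (edgeR adjusted p = 0.0233), a call that 0.43% of all genes met. Between numbers 2 and 1, 73 of the 79 ribosomal protein genes had negative estimates (median -0.53) and 0 passed the edgeR test. The difference from the members was not tested. In the B2 comparison 0 of them passed, with 7 positive, 72 negative and a median of -0.17. Library totals in place of TMM moved the members' B2 median to -0.08 and that of all genes to 0.00, so the small shared negative shift depends on scaling.

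**Figure D5:**
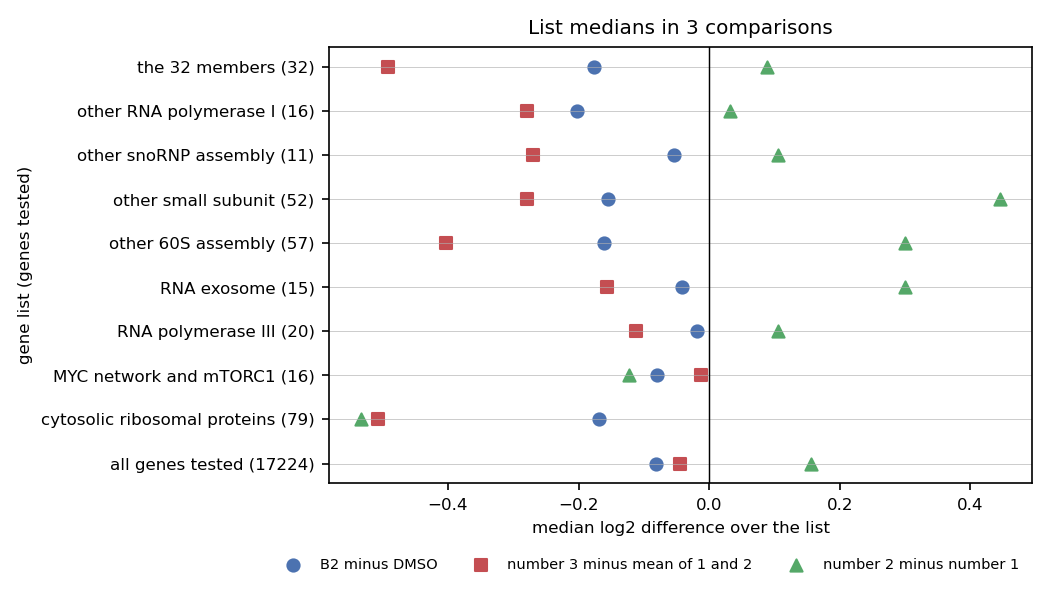
The x axis is the median log2 difference over each gene list, with 1 mark per comparison and the number of genes tested in brackets. For the 32 members, number 3 minus the mean of 1 and 2 lies at -0.49 and B2 minus DMSO at -0.18; the bottom row gives all tested genes, at -0.05 and -0.08.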

How the data were processed

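The deposited table holds expected counts (estimated read counts, here whole numbers) for each Ensembl gene, without normalization by the authors. HISAT2 2.0.4 was the aligner, per the submitters' processing notes. How reads were counted, on which build and annotation and with what strand setting is not given in the sources used here. Among low values, 4 occurred 6465 times, against 3144 times for 3 and 2022 times for 5, so small counts are less exact than their size implies. TRIzol RNA was used, per the labels' protocols.

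From the counts, genes were kept with filterByExpr (minimum count 10, minimum total 15) and tested with edgeR 4.0.16 (R 4.3.3; TMM, glmQLFit, glmQLFTest), with Benjamini-Hochberg adjustment over all 17224 genes at 0.05. The first fit held treatment only; a second held treatment and replicate number. SE came from the coefficient and its F statistic. Log2 CPM used a prior count of 2. Positions, exon lengths (all annotated exons of a gene merged) and GC content (longest transcript) come from GENCODE 29 (GRCh38), not the authors' files. NOP56, DKC1, GNL3, NOP58, BOP1, NOP2 and RRS1 overlap other genes on their strand, and POLR1C, UBTF, NHP2, NOP14, RRP12, NOP16, PES1, WDR12, GNL3 and MYBBP1A on the other, so their counts are less certain. Same-numbered libraries deviated together (Pearson r of deviations across genes 0.21, 0.40 and 0.50 for numbers 1 to 3). Deviations were taken from each group's mean, so these 3 values are not independent. In log2 CPM, same-numbered libraries correlated at 0.959, 0.973 and 0.976, and B2 replicates 1 and 2 at 0.976. B2 replicate 1 correlated more with DMSO replicate 2 (0.964) than with DMSO replicate 1 (0.959), so the pairing is not clear for number 1. Same-numbered differences and the block were therefore given as additions, not from the labels. The B2 estimates, SE, intervals and p-values given for genes come from the unpaired first fit.

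Members and lists were chosen with earlier results of these data known. Library values are printed for the members with the 6 smallest p for B2, the 8 smallest across numbers and the 3 highest per kilobase; NOP16 and RRS1 were added after their values were seen. Other pathway genes named are those with the smallest p of their list, and NSA2, RPF1, RPF2 and RPL5 were named after their values were seen. Alternatives were RLE factors, library totals, 2 other filters, DESeq2 1.42.0, limma-voom (limma 3.58.1), counts divided by 4, an offset for GC content and length, the block and each library left out; leaving out both libraries of a number was added after the data were seen.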

Additional observations from a re-analysis of the deposited data

How the results depend on the processing

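For B2 against DMSO, 0 members were called in each alternative run; over all genes 1 was called by DESeq2 and 1 without B2 replicate 2. The replicate block gave a member median of -0.12 and, with the GC and length trend removed, -0.10, and it changed no call. Leaving out 1 library moved the median from -0.33 (without DMSO replicate 3) to 0.015 (without DMSO replicate 1), and leaving out both libraries of number 1 gave -0.018. Of 32 member estimates 27 changed sign in at least 1 of 19 settings, 4 of them under another scaling. Members called in the F test across numbers were 0 in the reported fit, 3 with RLE factors, 8 with the stricter filter and 8 with DESeq2. They were 6 with limma-voom, 8 with counts divided by 4 and 0 to 11 with 1 library left out. The 11 came without B2 replicate 1, where 22.9% of all genes were called. Over all genes that test called 461, 266 with library totals, 956 with RLE factors, 2379 with counts divided by 4 and 4124 without B2 replicate 1. For number 3 the members called were all lower, while the shares of all genes in brackets count both directions. The calls were 1 with the stricter filter (6.91%), 3 with DESeq2 (6.23%) and 1 with limma-voom (4.56%). They were 1 with counts divided by 4 (7.38%), 3 with the GC and length trend removed (5.54%, or 1.35% as lower) and 1 with number as the only term (4.41%). With 1 library left out they were 0 to 3 (1.6% to 5.31%). FBL was called in each of these other than some fits with 1 library left out. The median was -0.47 without a filter, -0.54 with the GC and length trend removed and -0.55 to -0.45 with 1 library left out, and genes called ran from 288 to 1030. Between numbers 2 and 1, members called were 4 with the stricter filter (10% of all genes), 3 with DESeq2 (4.99%) and 2 with limma-voom (1.53%). They were 4 with counts divided by 4 (8.52%) and 0 to 10 with 1 library left out (10 without B2 replicate 1, 22%). Over all genes the calls ran from 0 to 3965. At an adjusted p below 0.01 the F test called 0 members and 248 genes. Why calls moved with the setting was not tested. With 3 libraries per group and 4 residual degrees of freedom, 95% intervals for B2 lay within a 2-fold change for 17 of the 32 members. With the replicate number as a block they did for 27, and for 31 with the GC and length trend also removed.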

Other observations

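RNA polymerase III makes the 5S rRNA and transfer RNAs. Of its 20 subunit and factor genes tested, 0 passed between B2 and DMSO (6 positive, 14 negative, median -0.02), and 14 were lower in number 3 with a median of -0.11, a smaller difference than the -0.49 of the members. Of 15 genes of the RNA exosome and pre-rRNA decay, 5 estimates for B2 were positive and 10 negative (median -0.04), and 9 were lower in number 3 (median -0.16). Among 16 growth regulators of the MYC network and mTORC1, 5 were positive and 11 negative for B2 (median -0.08) and 8 were lower in number 3 (median -0.01). MYC itself read 195, 199 and 131 CPM under B2 against 184, 193.5 and 171 CPM under DMSO (replicates 1, 2 and 3), lowest in number 3 of each group, with a log2 difference of number 3 of -0.36 (SE 0.26, edgeR adjusted p = 0.588). MXD4, a MAX partner that represses E-box genes, had the highest difference of the 16, 0.88 (SE 0.27, edgeR adjusted p = 0.132). With the GC and length trend removed it was the 1 gene of the 16 called, at 0.80 (edgeR adjusted p = 0.0474). In that setting 5.54% of all genes were called, so this is no result about the list. MYC stood at -0.41 there (edgeR adjusted p = 0.203). MYC and MXD4 were singled out of the list after their values were seen, and their part in the members' level was not tested.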
